A study of Arabidopsis thaliana with 42 samples.

Results

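Tamm-27 is a natural accession of Arabidopsis thaliana from Finland, and its root transcriptome was compared here with the root transcriptomes of 6 other accessions (Col-0, Kas-2, NFA-8, Sq-8, Ts-5 and Var2-1). Its members were the 6 arrays labelled with the ecotype Tamm-27, of 42 arrays in all, and the other 36 arrays made up the comparison, with each accession given equal weight. Seedlings of every accession were grown hydroponically for 12 days in long days, with 0.5 mM ammonium succinate as the only nitrogen and 3 mM sucrose. At dawn they received KNO3 to 5 mM or, as the control, KCl to 5 mM, and whole roots were taken after 2 hours. The 14 groups that this gave had 3 biological replicates each, measured on ATH1 arrays, whose short probe elements were designed on the Col-0 sequence. Each accession was 1 inbred line, so the p-values below measure the spread between arrays, and with the 7 accessions as the units the smallest one-sided exact p that the design allows is 0.143.

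Natural accessions are inbred lines collected from separate places, and they differ both in the level of many transcripts and in the sequence of the transcripts themselves. On an array made from the sequence of 1 accession, a mismatch between a probe element and the transcript of another accession lowers the signal. A higher signal in Tamm-27 is therefore less open to mismatch than a lower one. Whole roots contain root hairs, cortex, endodermis and vascular tissue, and they transcribe nuclear photosynthesis genes only weakly in comparison with leaves.

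The signal is the linear MAS5 value of a probe set, scaled to a like mean on every array. The median signal of the Tamm-27 arrays was 104.5 to 113.5, against 97.8 to 158 in the other arrays, and 51.0 to 52.8% of probe sets reached a signal of 100 in Tamm-27 arrays, against 49.5 to 62.5%. A Tamm-27 array correlated with the other Tamm-27 arrays at a mean r of 0.794 to 0.865 across probe sets and with arrays of other accessions at 0.665 to 0.749. In 10 arrays, none of them Tamm-27, the closest array belonged to another accession, and the array closest to Var2-1 KNO3 replicate 1 was Tamm-27 KCl replicate 2. The log2 3′/5′ ratio of control transcripts, a measure of RNA integrity and labelling, was low in both Tamm-27 replicate 3 arrays and high in the other 4 (-0.02 to 2.07 over the 6 arrays), while the other accessions ranged from -0.22 to 3.62. Its median was 1.93 in the Tamm-27 arrays and 0.77 in the other 36, so it was not balanced between the sides of the comparison.

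In Tamm-27 roots 1562 of 12612 tested probe sets (12.4%) were higher than the mean of the other accessions and 1272 (10.1%) were lower (limma, Benjamini-Hochberg adjusted p below 0.1). Of the higher ones 43 had a mean below 100 over the other 36 arrays, so they passed the filter on a mean signal of 100 only through the Tamm-27 arrays. The differences were mostly moderate. The median difference was 1.68-fold among the higher probe sets and 1.85-fold among the lower ones. Differences of at least 2 on the log2 scale were found for 74 higher and 100 lower probe sets, and of at least 3 for 10 higher and 20 lower ones. The median over all tested probe sets was 0.07. The Tamm-27 mean was the highest of the 7 accession means in both treatments for 636 of the higher probe sets (5.04% of those tested) and the lowest for 516 of the lower ones (4.09%). Among the higher probe sets 141 had a median signal above 100 in Tamm-27 and below 100 in the other arrays, and among the lower ones 381 had a median below 100 in Tamm-27 and above 100 in the others. Leaving out Tamm-27 KCl replicate 1 gave 672 higher and 634 lower probe sets, and leaving out Tamm-27 KNO3 replicate 1 gave 651 higher and 615 lower ones. Without the 10 arrays that were closest to another accession the counts were 2458 and 2073, and with the KNO3 and KCl arrays of the same number averaged they were 1066 and 863.

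Set against each accession in turn, Tamm-27 had 2196 higher (17.4%) and 1917 lower (15.2%) probe sets than Col-0, and 2482 higher (19.7%) and 1626 lower (12.9%) ones than Sq-8. Against Ts-5 the counts were 1066 (8.45%) and 828 (6.57%), and against Var2-1 they were 886 (7.03%) and 777 (6.16%). Against NFA-8 and Kas-2 they were 734 (5.82%) and 774 (6.14%), and 714 (5.66%) and 727 (5.76%). These 6 comparisons share the Tamm-27 arrays, and the accessions differed in the spread of their arrays, so the counts do not order the accessions by distance from Tamm-27. In all 6 comparisons at once 40 probe sets (0.317%) were higher and 74 (0.587%) were lower in Tamm-27. Without Tamm-27 KCl replicate 1 these counts were 14 and 48. With the arrays of the same number averaged the number higher was 14. It was 22 without Tamm-27 KCl replicate 2, 14 when Tamm-27 KNO3 replicate 1 was left out and 98 for Var2-1 KNO3 replicate 1.

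The 20 genes named for the largest positive differences were 3.83-fold to 21.3-fold higher in Tamm-27 (adjusted p from 2.2e-13 to 0.032, limma), and 8 of them were higher than in each of the other 6 accessions. These folds depend on the pseudocount where the other accessions were near background. With every signal below 100 set to 100 the 20 genes were at least 1.96-fold (GLU1) to 20.4-fold (AT5G26270) higher. CLE44, AT5G16990 and AT4G04180 had means of 72.3 to 78.2 over the other 36 arrays and passed the filter on the mean signal only through Tamm-27, so their tests lend no support. The gene with the largest difference was AT5G26270, which encodes a protein of unknown function. Its signal was 4568, 6377 and 2554 in Tamm-27 KNO3 arrays and 5422, 5706 and 2363 in Tamm-27 KCl arrays, against 42.2 to 2397 (median 173) in the other 36 arrays. Only the highest NFA-8 array reached the lowest Tamm-27 array. The authors had discarded 8 of the 11 probe elements of AT5G26270 for Tamm-27 in KNO3, in KCl or in both. AT5G26270 averaged 4498 ± 1684 in Tamm-27 and 955 ± 729 in NFA-8, with lower means of 256 ± 45.9 in Col-0, 189 ± 66.9 in Ts-5, 159 ± 76.6 in Sq-8, 145 ± 99.0 in Var2-1 and 89.0 ± 36.2 in Kas-2 (SD, n = 6 each). The difference of Tamm-27 from the other accessions was 4.42 ± 0.28 on the log2 scale (SE, adjusted p = 2.22e-13, limma). The means of Ts-5, Sq-8 and Var2-1 lay within 1 SD of each other.

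Several of these genes belong to enzyme, transport or signalling families. AT3G29410, a member of the terpene synthase family, gave 231, 807 and 173 in Tamm-27 KNO3 arrays and 550, 1182 and 450 in Tamm-27 KCl arrays, against a median of 78.0 and a highest value of 461 in the other arrays (6.90-fold, log2 difference 2.79 ± 0.48, adjusted p = 0.000164, limma). Of the Tamm-27 arrays 3 lay above all others and 3 overlapped with them. CLE44 encodes a small secreted peptide that maintains the vascular stem cells, and its signal was 92.6 to 429 in Tamm-27 arrays, against 1.9 to 192 in the other arrays. It was at least 2.58-fold higher with signals below 100 set to 100, and it passed the filter only through Tamm-27. AT1G14220, a ribonuclease of the T2 family, ranged over 197 to 2274 in Tamm-27 arrays, against 27.9 to 658 in the other arrays (5.00-fold, adjusted p = 0.00107). AT3G43630, related to the vacuolar iron transporters, ranged over 196 to 470 in Tamm-27 arrays, against 6.5 to 559 in the other arrays (5.35-fold, adjusted p = 0.000145). AT2G15560 (9.02-fold), AT1G09310 (6.48-fold), AT5G44580 (4.98-fold) and UGT88A1, a glycosyltransferase (3.83-fold), were also among the 20. So was AT4G04180 (at least 2.24-fold with signals below 100 set to 100), which passed the filter only through Tamm-27. AT1G09310 was not called without Tamm-27 KNO3 replicate 1 (adjusted p = 0.132, limma).

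The Tamm-27 arrays lay wholly above the other 36 for 6 probe sets (0.0476%), of which 3 (AT5G16990, 266680_s_at and 254565_at) passed the filter only through Tamm-27. AT5G16990, an oxidoreductase related to the alkenal reductases, was at 430, 242 and 205 in Tamm-27 KNO3 arrays and at 325, 340 and 200 in Tamm-27 KCl arrays, against 8.1 to 151 in the others. It was at least 2.64-fold higher with signals below 100 set to 100, and none of its elements had been discarded in Tamm-27. PKT4, a thiolase of fatty acid beta-oxidation, was at 547, 447 and 279 in Tamm-27 KNO3 arrays and at 629, 277 and 301 in Tamm-27 KCl arrays, against 27.3 to 247 in the others (log2 difference 1.94 ± 0.24, adjusted p = 1.04e-06, limma). PKT4 was called higher in Tamm-27 than in each other accession. The other 4 probe sets have no gene named by the sources used. One of them, 266680_s_at, gave 1030 to 2474 in Tamm-27 arrays against at most 84.6 elsewhere (median 12.9), at least 13.8-fold higher with signals below 100 set to 100, and its name marks it as one that matches several transcripts. With the same floor 254565_at was at least 2.48-fold higher, at a mean of 284 in Tamm-27 against 74.5 elsewhere. The other 2 were higher by 1.83 and 1.03 on the log2 scale.

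**Figure D1:**
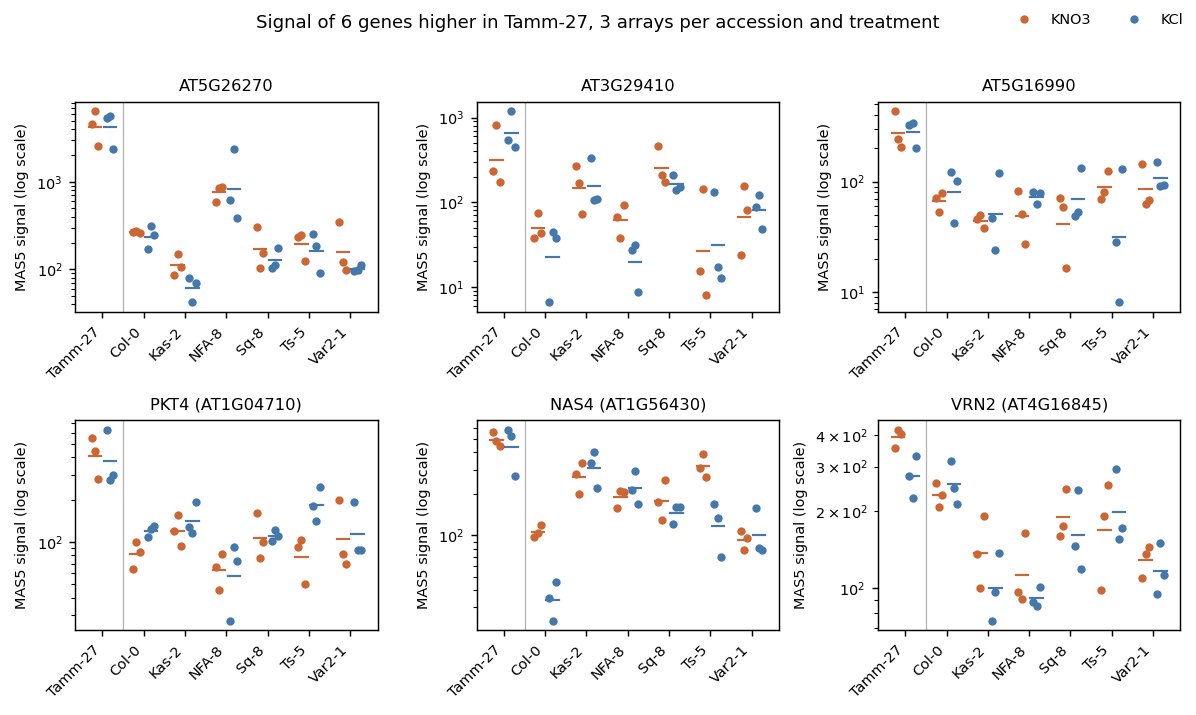
MAS5 signal (log axis) of 6 genes higher in Tamm-27, with each point 1 array, bars at the mean of 3 arrays on the log2(signal + 1) scale, KNO3 left of KCl, and Tamm-27 left of the other 6 accessions. The Tamm-27 points of AT5G16990 and PKT4 lie above all 36 others, and for AT5G26270 only 1 NFA-8 array (2397) reaches the lowest Tamm-27 array (2363).

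Nuclear photosynthesis genes as a group were higher in Tamm-27 roots than the mean of the other 6 accessions. All 15 tested members of a list of 46 genes were called higher (12.4% of all tested probe sets were), with a median log2 difference of 2.21 against 0.07 over all tested probe sets. An ordinary linear model of the unlogged signal called 2 of the 15. Set against single accessions, only PSAE-1 and PSBW were called higher than in each of the 6. Against Ts-5 the rest of the 15 were not called, and PRK was called against 0 of the 6. The Tamm-27 mean was the highest of 7 in both treatments for 3 of the 15. Subunits of photosystem I included PSAO (7.47-fold), PSAE-1 (7.26-fold), PSAG (5.14-fold), PSAN (5.00-fold) and PSAK (4.88-fold). Light-harvesting proteins included LHCA3 (5.13-fold), LHCB6 (4.46-fold) and LHCB4.1 (3.97-fold), and photosystem II subunits included PSBW (5.94-fold), PSBP-1 (3.04-fold) and PSBR (2.17-fold). RCA, the activase of the carbon-fixing enzyme Rubisco, was 4.62-fold higher, and the Calvin cycle enzymes PRK and SBPASE were 3.03-fold and 2.54-fold higher at adjusted p of 0.0921 and 0.0891 (limma). Leaving out single arrays ended the call of PRK in 22 of 42 cases and of SBPASE in 15. PSAG and GLU1 lost their calls without Tamm-27 KNO3 replicate 1 (adjusted p = 0.103 and 0.164), GLU1 also without Tamm-27 KCl replicate 1, and PSBR without any of the replicate 1 and 3 arrays of Tamm-27 (up to 0.172). Outside the list, the 20 highest also held GBSS1, which makes amylose (6.06-fold), ALDH11A3, a glyceraldehyde-3-phosphate dehydrogenase of the cytosol (5.63-fold), GLU1, the ferredoxin-dependent glutamate synthase (5.08-fold), LIL3:1 (4.99-fold), NPQ4, the PsbS protein of photoprotection (4.92-fold), and TLP18.3 (3.90-fold).

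PSAE-1 shows how the arrays lay. Its signal was 1078, 721 and 1573 in Tamm-27 KNO3 arrays and 1278, 1264 and 1539 in Tamm-27 KCl arrays, against a median of 174 and a range of 11.9 to 10553 in the other arrays. Tamm-27 was high in all 6 arrays, whereas single arrays of Col-0, Ts-5 and Var2-1 came into or above its range and most others lay below it. The summed signal of the 15 probe sets was 19041, 7818 and 15995 in Tamm-27 KNO3 arrays and 32894, 25273 and 26157 in Tamm-27 KCl arrays, against 1056 to 126353 with a median of 4402 in the other arrays. Var2-1 KNO3 replicate 1 gave the 126353, and without it the highest of the others was 32407, in Ts-5. These genes mark green tissue, and in whole roots a greater share of green cells and more such RNA per cell cannot be told apart. The summed signal moved with the treatment inside Tamm-27, with all 3 KNO3 arrays below all 3 KCl arrays.

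In the KNO3 arrays alone 0 of the 15 were called by limma (2 at an unadjusted p below 0.05, median log2 difference 1.11), and in the KCl arrays alone 14 were called higher (median 3.16), whereas 4.43% of all probe sets were called higher in KNO3 and 2.69% in KCl. The difference between the treatments was not called for any of the 15, and 3 had an unadjusted p below 0.05. Without Var2-1 KNO3 replicate 1 the calls were 4 in KNO3 and 15 in KCl arrays, and without Ts-5 KNO3 replicates 1 and 2 as well they were 10 and 15. These arrays had the highest sums of the 15 probe sets among KNO3 arrays of the other accessions (126353, 32407 and 18093). Leaving them out raised the KNO3 difference by construction, so the added calls lend no support. Without Tamm-27 KNO3 replicate 2 the calls were 0 in KNO3 and 14 in KCl arrays. Over both treatments the calls were 11 of 15 when Tamm-27 KNO3 replicate 1 was left out. Among arrays with a low 3′/5′ ratio 10 were called (median 1.92), and among those with a high ratio 0 (8 at an unadjusted p below 0.05, median 1.99). The ratio classes were uneven among accessions, so these fits differ in the accessions compared as well. Tamm-27 had 2 low and 4 high arrays, Col-0 had 0 high ones, Sq-8 had 1 high one and Kas-2 had 1 low one. A fit with the photosynthesis signal of each array as a covariate gave 790 higher and 518 lower probe sets in all, and in it 10 of the 20 highest genes and 11 of the 12 lowest were still called. The covariate was built from the 15 probe sets themselves, and PSAE-1, PSBW and RCA of the 20 highest are among them.

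**Figure D2:**
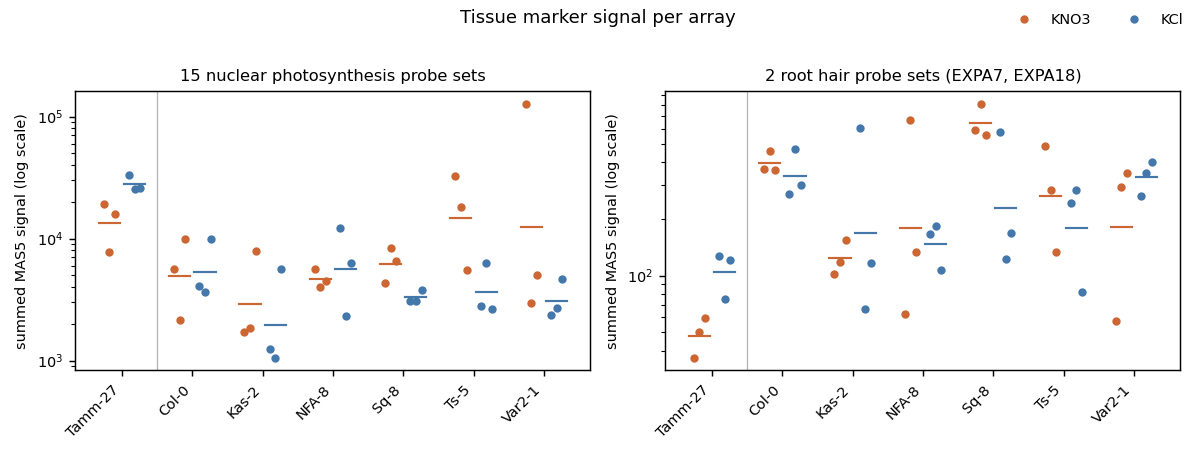
Summed MAS5 signal per array (log axis) of the 15 tested photosynthesis probe sets and of the 2 tested root hair probe sets, with bars at the mean of 3 arrays on the log scale, KNO3 left of KCl, and Tamm-27 left of the other 6 accessions. The Tamm-27 photosynthesis sums run from 7818 to 32894 around a median of 22157, against a median of 4402 in the other arrays, and the Tamm-27 root hair sums run from 36.7 to 127.

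The 12 genes named for the largest negative differences had adjusted p from 1.09e-10 to 0.00298 (limma). They were taken only from called genes whose Tamm-27 mean was the lowest of 7 in both treatments, which fixed the sign against each accession. Of the 12, 10 were called lower in Tamm-27 than in each of the other 6 accessions. For 7 of the 12 all 6 Tamm-27 arrays were below 100, near background. The fitted log2 differences thus depend on the pseudocount and do not rank these genes. With every signal below 100 set to 100 the 12 genes were at least 2.21-fold (CYP705A4) to 8.72-fold (AT5G38910) lower. AT3G49960, a class III peroxidase, gave 1.2, 1.4 and 1.2 in Tamm-27 KNO3 arrays and 25.7, 2.1 and 22.8 in Tamm-27 KCl arrays, against a median of 304 in the other arrays (log2 difference -5.19 ± 0.78, adjusted p = 2.42e-05). Signals this low carry no order, and 3 of the other 36 arrays, of NFA-8, Ts-5 and Var2-1, were also below 10 (1.8, 5.8 and 6.9). AT1G36640, of unknown function, was at 0.5 to 60.4 in Tamm-27 arrays and at 60.2 to 1178 in the other arrays (-4.98 ± 0.40, adjusted p = 1.09e-10).

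Families recurred among the lowest genes. AT4G14060, AT3G26460 and MLP329 encode proteins related to the major latex protein, a small ligand-binding family. AT4G14060 was at 14.9, 14.3 and 2.9 in Tamm-27 KNO3 arrays and at 1.2, 54.8 and 14.5 in Tamm-27 KCl arrays, against 20.6 to 1624 (median 434) in the others (-4.87 ± 0.51, adjusted p = 3.2e-08). AT3G26460 was at 12.2 to 19.9 in 5 Tamm-27 arrays and at 280 in Tamm-27 KCl replicate 2, against 30.3 to 2442 in the others (-3.80 ± 0.42, adjusted p = 1.37e-07). MLP329 was at 15.2 to 307 in Tamm-27 arrays, against 14.8 to 7266 in the others (-2.97 ± 0.67, adjusted p = 0.00298), and its groups overlapped widely. Tamm-27 KCl replicate 2 was the highest Tamm-27 array for each of the 3 genes. AT3G45840 and AT5G40590 encode proteins with cysteine-rich DC1 domains. AT3G45840 was at 27.3, 24.7 and 4.8 in Tamm-27 KNO3 arrays and at 7.2, 86.3 and 3.4 in Tamm-27 KCl arrays, against 130 to 518 in the others (-4.01 ± 0.35, adjusted p = 6.13e-10), so the groups did not overlap. AT5G40590 was at no more than 273 in Tamm-27 arrays, against 83.3 to 3215 in the others (-3.50 ± 0.53, adjusted p = 2.69e-05).

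The remaining genes of the 12 were AT4G20480 (at least 3.1-fold lower with the same floor), AT3G28550, an extensin-like protein of the wall (at least 2.62-fold), AT5G37990, a methyltransferase of the SABATH family (at least 4.58-fold), CYP705A4, a cytochrome P450, and AT5G38910, a germin-like protein. AT5G38910 gave 72.0, 183 and 183 in Tamm-27 KNO3 arrays and 1280, 4004 and 664 in Tamm-27 KCl arrays, against a median of 5493 in the other arrays. It was called in KNO3 arrays (log2 difference -4.58, adjusted p = 0.000112) and not in KCl arrays (-1.81, adjusted p = 0.187), and the difference between the treatments was not called.

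The Tamm-27 arrays lay wholly below the other 36 for 7 probe sets (0.0555%). UBC2, an enzyme that conjugates ubiquitin to histone H2B, was at 647, 911 and 1254 in Tamm-27 KNO3 arrays and at 267, 280 and 760 in Tamm-27 KCl arrays, against 1519 to 5643 in the others (-2.16 ± 0.17, adjusted p = 1.09e-10). LUL1, a ubiquitin ligase, was at 15.7 to 105 in Tamm-27 arrays, against 180 to 504 in the others (-2.76 ± 0.23, adjusted p = 3.66e-10). ASPGB1, an asparaginase that releases ammonium from asparagine, averaged 159 ± 38.6 in Tamm-27 arrays, against means of 393 in Col-0 to 1421 in Ts-5 (-2.34 ± 0.28, adjusted p = 3.23e-07). CYP705A4, AT3G45840 and AT3G26470, which encodes a protein with an RPW8 domain, were among the 7, and the remaining one, 246870_at, had no gene named. UBC2 had 8 of 11 elements discarded in one or the other Tamm-27 list, against 3 each for LUL1 and ASPGB1.

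**Figure D3:**
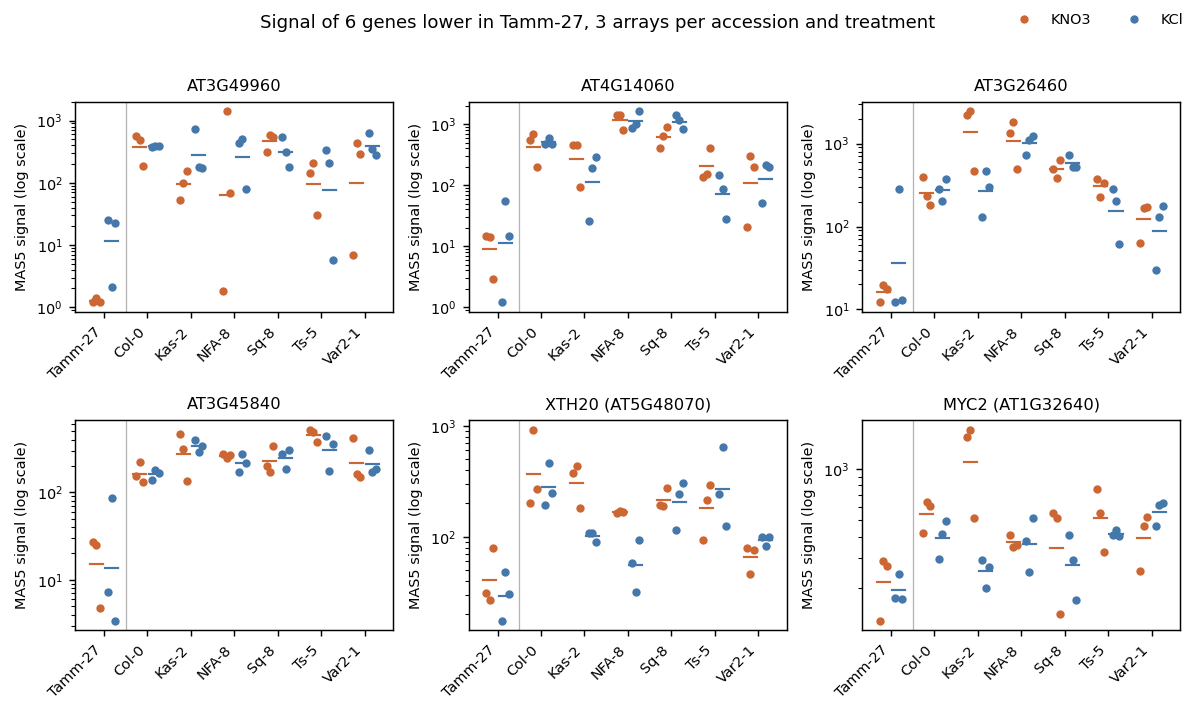
MAS5 signal (log axis) of 6 genes lower in Tamm-27, with each point 1 array, bars at the mean of 3 arrays on the log2(signal + 1) scale, KNO3 left of KCl, and Tamm-27 left of the other 6 accessions. The Tamm-27 points of AT3G45840 (3.4 to 86.3) lie below all 36 others (130 to 518), while single arrays of other accessions are as low as Tamm-27 for AT3G49960.

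Iron homeostasis genes held 3 higher and 1 lower call among 11 tested (median 0.23), where 12.4% of all tested probe sets were higher and 10.1% lower. NAS4, which makes the metal chelator nicotianamine, was at 557, 480 and 444 in Tamm-27 KNO3 arrays and at 581, 523 and 269 in Tamm-27 KCl arrays, against a median of 160 and a highest value of 404 in the other arrays (log2 difference 1.64 ± 0.19, adjusted p = 2.79e-07, limma). Only Tamm-27 KCl replicate 3 lay within the range of the other accessions. NAS4 averaged 476 ± 113 in Tamm-27, followed by 295 ± 77.0 in Kas-2, 222 ± 118 in Ts-5, 208 ± 46.9 in NFA-8, 166 ± 47.1 in Sq-8, 99.6 ± 31.1 in Var2-1 and 70.6 ± 40.3 in Col-0 (SD, n = 6 each), and it was higher in Tamm-27 than in each of them. OPT3, which loads iron into the phloem, was 2.19-fold higher and ILR3, a transcription factor of the iron response, 1.37-fold higher. HMA5, a copper-exporting ATPase, was 1.69-fold lower. The calls of ILR3 and HMA5 were lost without 4 arrays and 1 array taken singly, all of Tamm-27 (largest adjusted p = 0.248, and 0.181 without KCl replicate 3).

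Immune receptor and signalling genes held 3 higher calls and 1 lower call among 9 tested (median 0.09), against 12.4% and 10.1% of all tested probe sets. CSA1, a receptor of the nucleotide-binding leucine-rich repeat class, averaged 354 ± 66.3 in Tamm-27, below 672 ± 284 in NFA-8 and 474 ± 71.4 in Sq-8, and above 35.8 ± 29.6 in Ts-5 and 23.8 ± 11.6 in Var2-1 (SD, n = 6 each). Its 3.29-fold difference (adjusted p = 0.00162) thus lay between the levels of other accessions. RPP5, of the same class, averaged 238 ± 43.7 in Tamm-27, against 241 ± 50.1 in Col-0 and 52.7 to 138 in the other 5 (2.45-fold higher over the 6), and it was not called against Col-0, Ts-5 or Var2-1. ADR1, a helper of such receptors, was 1.70-fold higher. SAG101, a partner of EDS1 in immune signalling, was 2.47-fold lower, at 47.3 to 107 in Tamm-27 arrays against a median of 170 in the others (adjusted p = 0.000562).

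Wall-loosening genes changed in both directions, with 5 higher and 2 lower of 11 tested (median -0.14), against 12.4% and 10.1% of all tested probe sets. EXLA1, an expansin-like protein, averaged 311 ± 184 in Tamm-27, against 316 ± 232 in NFA-8, 252 ± 112 in Col-0 and 215 ± 234 in Sq-8, from which it was not called different, and 22.6 to 79.4 in the other 3 (3.34-fold higher over the 6). XTH4, an enzyme that remodels xyloglucan, was 2.24-fold higher. XTH20, of the same enzyme family, was at 30.9, 26.9 and 78.9 in Tamm-27 KNO3 arrays and at 17.5, 48.4 and 30.2 in Tamm-27 KCl arrays, against 31.6 to 918 (median 177) in the others. It was lower in Tamm-27 than in each other accession (log2 difference -2.22 ± 0.31, adjusted p = 5.68e-06, limma), and it averaged 38.8 ± 22.1 in Tamm-27, against 80.6 ± 19.8 in Var2-1, the next lowest (SD, n = 6 each). XTH18 fell by 1.07 on the log2 scale, and its call was lost without any of the replicate 1 and 2 arrays of Tamm-27 (largest adjusted p = 0.339).

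Both tested members of a list of 8 root hair genes were lower, where 10.1% of all tested probe sets were lower. EXPA7, a root hair expansin, was at 13.2 to 45.7 in Tamm-27 arrays, against a median of 115 in the others (3.31-fold lower, adjusted p = 0.00932, limma). EXPA18 was 3.15-fold lower (adjusted p = 0.0451, limma). All Tamm-27 signals of EXPA7 were below 100, near background, so its fold depends on the pseudocount. The summed signal of the 2 genes was 36.7 to 127 in Tamm-27 arrays (median 67.2), against 57.1 to 809 in the other arrays (median 276). Low arrays were also found in Var2-1 (57.1 to 398), NFA-8 (62.7 to 667), Kas-2 (66.8 to 608), Ts-5 (82.2 to 487) and Sq-8 (122 to 809). Only the Col-0 arrays (270 to 470) all lay above the Tamm-27 range. EXPA18 lost its call without Tamm-27 KCl replicate 1 or 2 or Tamm-27 KNO3 replicate 1 (largest adjusted p = 0.188). The 2 tested suberin genes held 1 lower call, the endodermis list had 1 tested probe set and no call, and no xylem or phloem gene of the list had a probe set named. EXPA7 was not called against Kas-2 or NFA-8, and EXPA18 was not called against Kas-2, NFA-8, Ts-5 or Var2-1. The cell type makeup of the roots was not measured, and its part in the other results was not tested.

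In jasmonate synthesis and signalling 3 of 7 tested genes were lower and none higher (median -0.50), where 10.1% of all tested probe sets were lower. OPR3, an enzyme of jasmonate synthesis, was at 67.3, 69.4 and 82.0 in Tamm-27 KNO3 arrays and at 126, 70.6 and 74.9 in Tamm-27 KCl arrays, against a median of 188 in the others (log2 difference -1.32 ± 0.23, adjusted p = 0.000154, limma). Its level was spread widely among the accessions, with 81.7 ± 22.2 in Tamm-27, against 796 ± 407 in Ts-5, 462 ± 127 in Col-0, 94.6 ± 45.6 in NFA-8 and 62.6 ± 17.7 in Var2-1 (SD, n = 6 each). Tamm-27 overlapped with NFA-8 and Var2-1. MYC2, the central transcription factor of the response, was at 129 to 290 in Tamm-27 arrays, against a median of 417 in the others (2.07-fold lower, adjusted p = 0.00343). TIFY10B, a repressor of that response, was 1.75-fold lower (adjusted p = 0.0495), and its call was lost without any of the replicate 1 and 2 arrays of Tamm-27 (up to 0.235).

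Nitrate genes gave 2 lower calls and no higher one among 16 tested (median 0.08), a share near the 10.1% of all tested probe sets that were lower. NRT2:1, the main high-affinity nitrate transporter of the root, was at 133, 168 and 131 in Tamm-27 KNO3 arrays and at 46.8, 118 and 56.6 in Tamm-27 KCl arrays, against 9.3 to 10752 (median 387) in the others (log2 difference -2.06 ± 0.73, adjusted p = 0.0518). The highest values were those of Col-0, and the call was lost without Col-0, without Tamm-27 KCl replicate 1 and without Tamm-27 KNO3 replicate 1 (up to 0.158 for the last pair). AT1G25550, a transcription factor of the nitrate response, was 2.23-fold lower (adjusted p = 0.00116), at 137 to 377 in Tamm-27 arrays against a median of 510 in the others.

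Other lists gave few calls, where 12.4% of all tested probe sets were higher and 10.1% lower. Of the glucosinolate genes 2 were higher, SOT18 (1.91-fold) and UGT74B1 (1.64-fold), and 1 lower, SOT17 (2.54-fold), all 3 acting at the last steps of synthesis. The dehydrins COR47 and LTI30 were 1.98-fold and 1.84-fold lower among 4 tested genes of cold and water deficit. Of the glutathione transferases GSTU7 was higher, and GSTZ1, GSTU6 and ERD9 were lower, of 12 tested. JAL34, a jacalin lectin, and NAI2, a component of ER bodies, were 1.61-fold and 1.56-fold higher. VRN2, a Polycomb protein of the vernalization response, was at 356, 418 and 402 in Tamm-27 KNO3 arrays and at 276, 227 and 331 in Tamm-27 KCl arrays, against 74.5 to 314 in the others (2.17-fold higher, adjusted p = 9.04e-05, limma). UGT78D2, a flavonoid glucosyltransferase, was 1.97-fold higher, TPS-CIN, a terpene synthase, was 2.44-fold lower (adjusted p = 0.0949), and ELF3, SIM, RNS1 and MYB93 were 1.39-fold to 1.89-fold lower. Of the 10 auxin and 6 heat shock genes tested 0 were called over both treatments, and 0 had an unadjusted p below 0.05 there (limma). Within single treatments 0 were called as well. An unadjusted p below 0.05 was found there for 1 auxin gene in KNO3 and 1 heat shock gene in each treatment (limma). In these lists the calls of UGT74B1, COR47, LTI30, GSTZ1, GSTU6, ERD9, JAL34, NAI2, ELF3, SIM and RNS1 were lost without 1 or more single Tamm-27 arrays (largest adjusted p 0.137 to 0.275), KCl replicate 1 or KNO3 replicate 1 among them for each, and those of TPS-CIN and MYB93 without any of 25 arrays of Tamm-27 and other accessions. Of the 38 called list members named outside photosynthesis, NAS4 and XTH20 differed from each of the 6 other accessions, and for 11 the mean difference had the opposite sign against at least 1 accession. RPP5, the SOT genes, the GSTU genes and the latex protein relatives belong to families with close copies that a probe set can share.

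**Figure D4:**
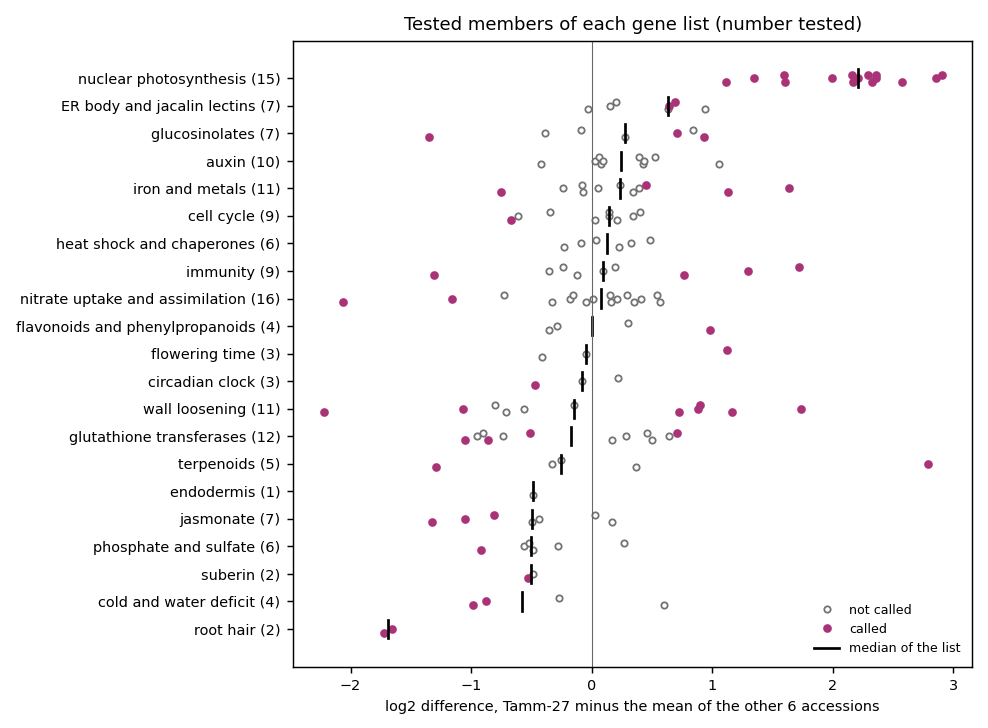
Log2 difference of Tamm-27 minus the mean of the other 6 accessions for each tested member of each gene list, with filled points called at an adjusted p below 0.1, open points not called, and a tick at the median. All 15 photosynthesis genes lie above 0 around a median of 2.21, both root hair genes lie below 0, and the other lists have medians from -0.57 to 0.63.

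Of the genes that the study followed up, AT4G02860, a member of the PhzC family, was at 548, 336 and 956 in Tamm-27 KNO3 arrays and at 346, 135 and 379 in Tamm-27 KCl arrays, against a median of 829 in the others (1.97-fold lower, adjusted p = 0.00109, limma). UBQ14, a polyubiquitin gene, was at 2371, 2474 and 3250 in Tamm-27 KNO3 arrays and at 6015, 5651 and 5320 in Tamm-27 KCl arrays, against a median of 4974 in the others. The difference of UBQ14 over both treatments did not pass the test (-0.34 ± 0.17, adjusted p = 0.175), whereas it was called lower in KNO3 arrays alone (-1.02, adjusted p = 0.00962, limma). The change of this difference between the treatments was not called.

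The comparison was also made within each treatment. Tamm-27 KNO3 and KCl arrays of the same number deviated together from their group means (r = 0.58, 0.44 and 0.69 across probe sets for replicates 1, 2 and 3), so the treatments were not independent repeats and the shared calls and signs are a description. In KNO3 arrays alone 559 probe sets (4.43%) were higher and 648 (5.14%) lower in Tamm-27, and in KCl arrays alone 339 (2.69%) were higher and 282 (2.24%) lower. In both treatments 264 were called, 262 of them in the same direction, which is 21.9% of the KNO3 calls and 42.5% of the KCl calls. The sign was the same in the other treatment for 93.4% of the KNO3 calls and 94.4% of the KCl calls, against 73.0% of all tested probe sets. Of the 20 highest genes 11 were called in KNO3 and 16 in KCl arrays, and of the 12 lowest genes 12 and 10. The 1207 KNO3 calls (9.57%) became 154 without Tamm-27 KNO3 replicate 1 and 561 without Tamm-27 KNO3 replicate 2, and the 621 KCl calls (4.92%) became 115 and 188 without Tamm-27 KCl replicates 1 and 2. NIR1, the nitrite reductase that nitrate induces, was at 4736, 407 and 5390 in the libraries labelled Tamm-27 KNO3 and at 314, 351 and 425 in those labelled Tamm-27 KCl, so the library labelled KNO3 replicate 2 was at the KCl level. NIR1 also stood at 9603 in the library labelled Col-0 KCl replicate 2 and at 2659 in that labelled Col-0 KNO3 replicate 1.

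The size of the Tamm-27 difference changed with the treatment for 8 probe sets (0.0634%). AT4G26410 differed by -2.10 in KNO3 and 0.43 in KCl arrays on the log2 scale (adjusted p of the change 0.0193, limma), AT4G10320 by -2.04 and -0.10, and OMT1, a methyltransferase of lignin and flavonol synthesis, by -1.44 and 0.18. AT3G58560 (-0.73 and 0.87) and RPL21C, a ribosomal protein (0.08 and 1.85), were likewise relatively lower in KNO3, whereas AT2G32090 (0.40 and -1.29) was relatively higher.

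**Figure D5:**
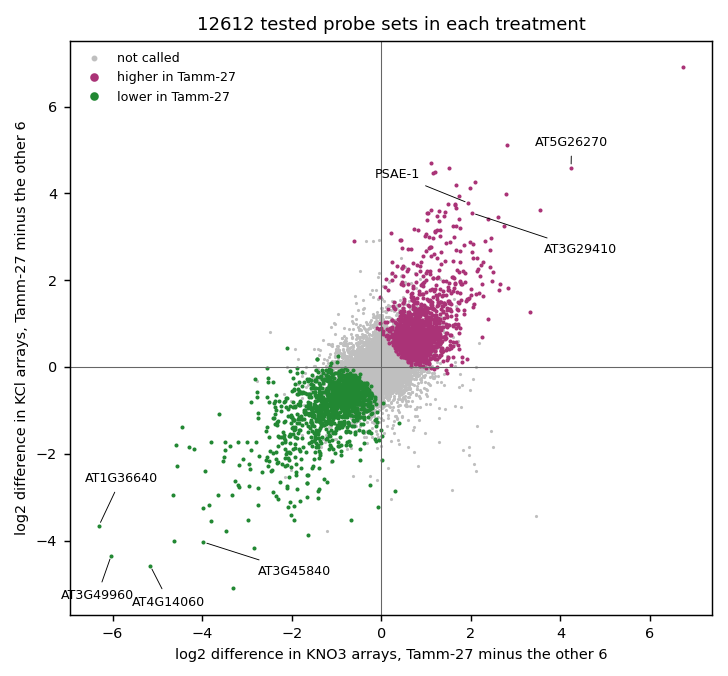
Log2 difference of Tamm-27 minus the other 6 accessions in KNO3 arrays (x axis) and in KCl arrays (y axis) for 12612 probe sets, coloured by the call over both treatments. The called probe sets lie along the diagonal in 2 opposite quadrants, and AT5G26270 and AT3G49960 are far out in both treatments.

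Discarded probe elements were more frequent among lower probe sets. The authors had removed 33045 elements for Tamm-27 in KNO3 and 32602 in KCl, with 8704 in both lists. Per probe set of 11 elements, a mean of 2.84 was discarded in one or the other list for the higher calls and 3.25 for the lower calls, against 2.71 for probe sets not called. At least 6 elements were discarded for 6.02% of the higher and 11.6% of the lower calls, against 6.29% of all tested probe sets. Among probe sets lower than in each other accession the share was 25.7%, and among those higher than in each it was 12.5%. Of the 12 lowest genes AT5G38910 had 9 elements discarded, AT3G49960 and AT4G20480 had 7 each, and AT3G26460 had 1. Of the 20 highest genes AT5G26270 and PSBW had 8 each, whereas GBSS1, AT5G44580 and AT5G16990 had none. Only 924 of 12612 tested probe sets had no element discarded, and 88 of these were called higher and 52 lower. The part of probe mismatch in the higher or lower calls was not tested.

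Neighbouring genes were both higher, or called in opposite directions, about as often as the shares of called genes give, and both lower more often. Of 2441 pairs of adjacent tested genes (order from the TAIR10.1 annotation), 41 were both higher, 41 both lower and 69 called in opposite directions, against 38.4, 30.5 and 68.5 from those shares alone. The shares were taken over all 7583 tested probe sets with a single nuclear gene, not over the paired genes. The excess of pairs both lower was not tested. The pairs given next were chosen after their values were seen. AT3G26460 and AT3G26470 differed by -3.80 and -1.79 on the log2 scale, and CYP705A4 and AT4G15390 by -3.52 and -1.69. The peroxidase PER4 and its neighbour AT1G14550 differed by -1.97 and -2.37, and AT1G52060 and AT1G52070, both jacalin lectins, by -2.46 and -1.93. VRN2 and AT4G16850 differed by 1.12 and 1.23, and AT5G51620 and AT5G51630 by 1.59 and 2.27. Adjacent members of a family can share probe sequence, and whether these pairs do was not tested.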

How the data were processed

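Whole-root RNA of 7 accessions under KNO3 or KCl (14 groups of 3 arrays, 42 in all) was compared, with groups taken from the deposited labels. The authors deposited MAS5 signal intensities (version not given in the sources used here) on a linear scale. Before that step they had discarded, for each accession and treatment, the elements whose signal rank was an outlier relative to Col-0. The authors also deposited the lists of discarded elements, which have no unit and were read as lists. No column lacked a sample (0). The number of arrays limits the precision.

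Of 22746 non-control probe sets, 12612 whose signal averaged 100 or more across the arrays were tested. Of these, 6600 were named by the platform annotation and 983 by probe set to gene pairs in the study's supplementary tables (7583 with a single nuclear gene), and 5029 were not named. JR1 is not analysed here. In R 4.3.3 with limma 3.58.1, log2(signal + 1) was fitted with 14 group terms and empirical Bayes variances that follow the mean signal, and two-sided p-values were adjusted by Benjamini-Hochberg over all tested probe sets, with calls at 0.1. Each accession had equal weight, and fold changes are on the log2(signal + 1) scale. Fold changes of signals near background depend on the pseudocount and can be far larger than with signals below 100 set to 100. The procedure was tested on simulated data.

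Genes named were the 20 highest and 12 lowest called single nuclear genes whose Tamm-27 mean was the highest or lowest of 7 in both treatments, up to 4 called members of each of 22 lists, and the genes the study followed up. Probe sets whose arrays do not overlap and neighbouring pairs were named after their values were seen. The arrays left out in the treatment fits of the photosynthesis genes were also chosen after their values were seen. The members and lists were chosen with earlier results of these data known. Alternatives changed the normalization, pseudocount, filter, probe sets, variance model, test, accessions compared, threshold and covariates and left out each array. Chosen after seeing the data were fits on arrays with a low or high 3′/5′ ratio (split at a log2 ratio of 1.5), that class as a block, the photosynthesis signal as a covariate, the averaging of arrays of the same number, quantile normalization for non-overlap, lower bounds on fold changes with signals below 100 set to 100, and fits without the 10 arrays closest to another accession and without 2 Var2-1 arrays of high ratio.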

Additional observations from a re-analysis of the deposited data

Results flagged for a closer look

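In 8 named genes 1 of the 6 Tamm-27 arrays stood apart from the other 5, with a gap to its neighbour that took up most of the whole range on the log2 scale. The share of the range was 0.85 for AT3G26460, where Tamm-27 KCl replicate 2 was high (280 against 12.2 to 19.9), and 0.689 for GLU1, where Tamm-27 KNO3 replicate 1 was high (978 against 119 to 229). It was 0.685 for OPR3, with Tamm-27 KCl replicate 1 high (126 against 67.3 to 82.0). For NAI2 (0.695), CLE44 (0.682), NAS4 (0.649), XTH4 (0.643) and PSAK (0.626) 1 array stood apart as well. The array was a low one in XTH4 (Tamm-27 KNO3 replicate 2, at 581), NAS4 (Tamm-27 KCl replicate 3, at 269), CLE44 (Tamm-27 KNO3 replicate 2, at 92.6), PSAK (Tamm-27 KNO3 replicate 2, at 349) and NAI2 (Tamm-27 KNO3 replicate 1, at 1069). Chance alone gives such a gap in about 1 of 20 groups, or about 4.8 of the 96 groups looked at (93 named probe sets and 3 measures of the arrays).

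The Tamm-27 difference itself differed between KNO3 and KCl arrays for 8 probe sets, 6 of which are named in the report. The other 2 have no gene named, and their differences were -0.67 in KNO3 and -3.54 in KCl arrays for one and -1.13 and 0.92 for the other.

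Outside the tested probe sets, 1 probe set was at 100 or more in all 6 Tamm-27 arrays and below 100 in all 36 others. It measures AT1G20400, at 174 to 365 in Tamm-27 arrays (median 280), against a median of 14.7 and a highest value of 82.7 in the other arrays, and it fell under the filter on the mean signal.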

How the results depend on the processing

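Across the alternatives every named gene kept its direction except the 9 cases given here. With the photosynthesis signal as a covariate PSAO (-0.41), PSAG (-0.45), GLU1 (-0.15), HPR (-0.18), PRK (-0.88), SBPASE (-0.53) and PSBR (-0.20) turned negative, and the covariate is built from these list genes, except GLU1. GSTZ1 was 0.16 against Kas-2 and Ts-5 alone, and TPS-CIN was 0.40 among arrays with a high 3′/5′ ratio. The cause was not tested. Of the 93 named probe sets the call was lost for 44 among arrays with a high ratio, 37 among those with a low ratio, 42 with the photosynthesis covariate (PRK was called lower there) and 31 in the ordinary linear model, for 19 against Kas-2 and Ts-5 alone and for at most 14 under the other alternatives, those without single arrays aside.

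The counts below run, where not said otherwise, higher, lower, higher than in each, lower than in each, KCl alone and KNO3 alone (1562, 1272, 40, 74, 621 and 1207 in the report). Probe sets with a single gene in the platform annotation gave 746, 687, 17, 43, 296 and 635, and those with no element discarded 88, 52, 4, 0, 17 and 16, from fewer probe sets tested. Against Kas-2 and Ts-5 alone there were 856 higher, 819 lower, 225 and 331 past both and 762 in KNO3. At a false discovery rate of 0.05 there were 987 higher, 17 higher than in each, 358 in KCl and 694 in KNO3. Higher calls were 993 without Col-0. Higher than in each were 64 without Kas-2, 81 without Ts-5 and 114 without Var2-1, and lower than in each 122 without Ts-5 and 124 without Var2-1. An ordinary linear model of the signal gave 114 higher and 9 lower than in each. With the 3′/5′ ratio as covariate they were 107 and 131, with 1341 in KCl and 2195 in KNO3.

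Chosen after seeing the data, the arrays of low ratio gave 427 higher, 533 lower, 8 and 38 past each, and those of high ratio 923, 600, 4 and 12. The share of higher among all calls was 44.5% at low and 60.6% at high ratio, against 55.1%. Without the 10 arrays closest to another accession there were 2458 higher and 2073 lower. The photosynthesis covariate gave 790 higher, 518 lower, 37 lower than in each and 127 in KCl. Without both Var2-1 arrays of high ratio 104 were higher than in each, with 1138 in KCl and 1851 in KNO3. Averaging arrays of the same number left 14 higher than in each and ended 14 named calls. Non-overlap held for 5 higher and 9 lower probe sets after quantile normalization, against 6 and 7.

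Leaving out single arrays gave 651 to 1885 higher, 615 to 1518 lower, 14 to 98 higher than in each, 48 to 102 lower than in each, 115 to 865 in KCl and 154 to 1693 in KNO3. The replicate block gave 1739 higher, 1400 lower, 45 and 82 past each, 793 in KCl and 1349 in KNO3, and no named call changed. Deviations of Tamm-27 arrays correlated with those of the same number in other accessions at -0.34 to 0.57, above 0.1 in 19 of 36 cases. In KNO3 arrays the correlation was above 0.1 for every replicate of Kas-2, NFA-8, Ts-5 and Var2-1, and it was mixed for Col-0 and Sq-8. A part shared by arrays of the same number can thus not be set aside, and the main fit has no term for it. Signals below about 100 are near background and limit the precision of the lowest genes.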
